A study of Mus musculus with 473 samples.

Results

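At postnatal day 7 (P7), 61 of 285 single mouse brain cells (21.4%, exact Clopper-Pearson 95% interval 16.8 to 26.6%) carried a label saying that they had failed the authors' quality control. They are described here against the 224 P7 cells that passed, region by region. The whole series holds 473 cells. The failed cells came from the forebrain (FB, which the labels give as hypothalamus; 14 of 95 cells, 14.7%), the midbrain (MB; 20 of 95, 21.1%) and the olfactory bulb (OB; 27 of 95, 28.4%), beside 81, 75 and 68 passed cells of these regions. Members were chosen by the label alone. The criterion behind that label is not given in the sources used here.

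All groups, failed and passed, shared 1 mouse line and 1 preparation. The mice carried Tg(Th-EGFP)DJ76Gsat/Mmnc, a bacterial artificial chromosome in which regulatory sequences of the tyrosine hydroxylase gene (Th) drive enhanced green fluorescent protein (eGFP), on a Swiss Webster background. Tissue of 5 P7 pups was pooled per region, digested with papain, cleaned on a density gradient and sorted for eGFP fluorescence and exclusion of propidium iodide, a dye that enters dead cells. Each cell became 1 Smart-Seq2 library, a full-length poly(A) method, after 20 preamplification and 14 enrichment cycles. Since each region is 1 pool of animals, the cells are not replicates of a condition. No test of a difference was possible, and intervals and SDs over cells cover counting error and the spread between cells only. Values are FPKM, a read level corrected for transcript length and for the size of the library, so the depth of a cell is unknown. A gene was called found in a cell at an FPKM of 1 or more.

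The sort was aimed at neurons that make dopamine, for which Th is the rate-limiting enzyme. The brain at this age also holds glia and their precursors. Radial glia and neural progenitors express Fabp7, a brain fatty acid binding protein, and Sox9, a transcription factor of the glial lineage. Astrocytes take up glutamate through Slc1a3, are coupled by the gap junction protein connexin 43 (Gja1) and regulate water flow through the channel Aqp4. Oligodendrocytes wrap axons in myelin, in which myelin basic protein (Mbp) is a major component. In the olfactory bulb, ensheathing glia surround the incoming sensory axons, and new interneurons still arrive from progenitors near the ventricle.

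The cells lay on 3 library plates, and on TH02_16.18.20 and TH02_20.16.18 the labels matched the FPKM columns only after the columns of the 2 plates were exchanged well by well. Each library is recognised by a pair of 8-base indices. They are shown as the labels give them. Well D06 of all 3 plates was taken because that well of TH02_20.16.18 holds a failed OB cell described below. Whether the labels or the column names were exchanged is not known. A pair printed for an exchanged plate may therefore belong to the reads of the other plate. All bases are in capitals because every base identifies the library.
TH02_20.16.18, OB cell, index 1 N706: TAGGCATG
TH02_20.16.18, OB cell, index 2 S517: GCGTAAGA
TH02_16.18.20, FB cell, index 1 N706: TAGGCATG
TH02_16.18.20, FB cell, index 2 S506: ACTGCATA
TH02_18.20.16, MB cell, index 1 N722: ATGCGCAG
TH02_18.20.16, MB cell, index 2 S506: ACTGCATA
At this well, the exchanged plates share index 1 and differ in index 2, whereas TH02_18.20.16 shares index 2 with 1 of them.

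The exchange decides which column a failed cell has. The number of genes that the labels give for a cell correlated with the number found in its column at r = 0.999 on TH02_16.18.20 (95 cells) after the exchange, against -0.0338 with the columns taken by name. On TH02_20.16.18 these values were 0.999 (94 cells) and -0.0519, and on TH02_18.20.16, whose columns were not exchanged, r was 0.999 (95 cells). The pattern was the same in the 42 failed cells with a label gene number on the exchanged plates (0.998 exchanged, -0.237 by name) and in the 147 passed cells there (0.998 and -0.00276). Genes of the regions gave a second reading. Gad1, which makes the transmitter GABA in forebrain interneurons, was found in 2 of 45 passed MB cells on these plates after the exchange and in 40 of 45 by name, beside 0 of 30 on TH02_18.20.16. The midbrain dopamine transporter gene Slc6a3 was found in 38 of 45 and in 15 of 45, beside 26 of 30. All values below use the exchanged columns. They concern 43 of the 61 failed cells, and the other 18 lay on TH02_18.20.16.

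The failed cells split into near-empty and rich wells at 1000 genes found. Near-empty wells numbered 10 of 61 (16.4%, 8.15 to 28.1%), of which 3 of 14 were in FB, 4 of 20 in MB and 3 of 27 in OB. The remaining 51 were rich, 11 in FB, 16 in MB and 24 in OB. In FB, rich failed cells had from 1142 to 6444 genes (median 2887), against 2384 to 7704 (median 5030) in passed cells. In MB, the range was 2686 to 6940 (median 4772.5) in rich failed cells and 4124 to 7976 (median 6135) in passed cells. In OB, it was 1046 to 3834 (median 2009.5) in rich failed cells and 2297 to 5977 (median 3464) in passed cells. The groups overlapped in every region. Just inside the limit lay OB cells H04 (1046) and G01 (1126) and FB cell C03 (1142), and just outside it OB cell F04 (994) and MB cell B07 (983).

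**Figure D1:**
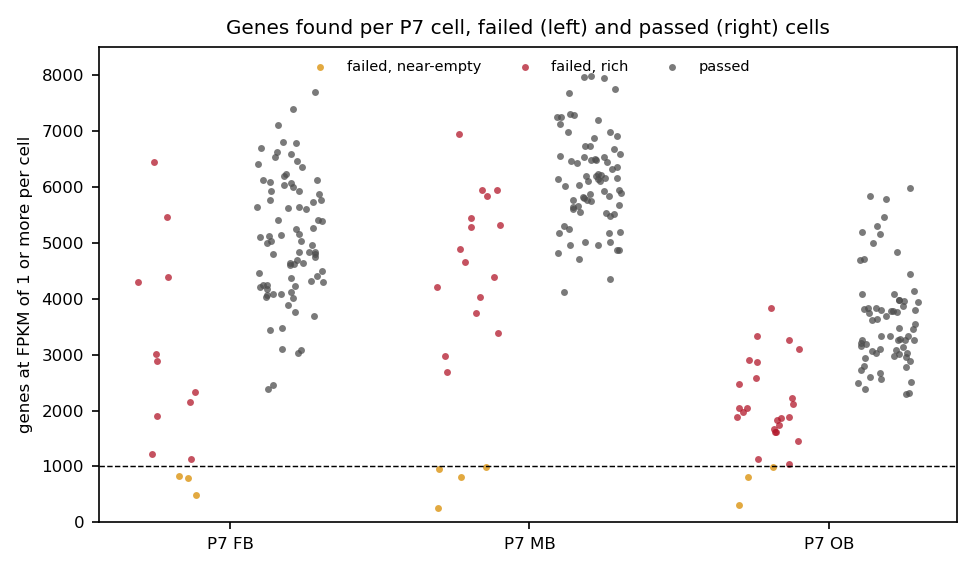
Number of genes at an FPKM of 1 or more in each P7 cell, by region, failed cells to the left of passed cells, with a dashed line at 1000 genes. The 10 near-empty wells lie under the line, and the 51 rich failed cells reach from 1046 to 6940 genes and overlap the passed cells of each region.

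A low gene number was not shared by all failed cells. Among the 51 rich failed cells, 26 (50.98%, 36.6 to 65.2%) had a label gene number at or above that of the lowest passed cell of the region, which was 2169 in FB, 4081 in MB and 2146 in OB. These were 6 of 11 cells in FB, 12 of 16 in MB and 8 of 24 in OB.

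The near-empty wells held few genes, but most held Th. Th was found in 9 of the 10, at 2.57, 980.5 and 1202 FPKM in FB, at 704, 721 and 1929 FPKM in MB (and 0 in MB cell B07) and at 267, 986 and 2068 FPKM in OB. Slc6a3 stood at 144 to 227 FPKM in all 4 MB wells. The reporter, eGFP, was found in 5 of the 10, at up to 1084 FPKM in FB cell D11. At least 50% of 10 housekeeping genes were found in 5 of 10 near-empty wells, against 51 of 51 rich failed cells and 224 of 224 passed cells. Apart from B07, their Th levels lay within the range of the passed cells of the region, among only 250 to 994 genes found. Some of these wells also held list genes of another region. MB cell F02 had Pax6 at 520, Trh at 397 and Gad1 at 289 FPKM, which were at 0 in E04, H02 and B07. FB cell D11 had Aldh1a1 at 302, Slc6a3 at 172 and Chrna6 at 103 FPKM, and A08 had Slc10a4 at 661 FPKM. These genes were at 0 in FB cell C11. Whether the Th came from the well's own cell was not tested.

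FB cell C11 stood apart among the near-empty wells. It had 485 genes, Fabp7 at 4381 FPKM, the tight junction gene Cldn10 at 1074 FPKM and Gja1 at 98.1 FPKM, with Th at 2.57 FPKM. The highest passed FB cell had 469 FPKM of Fabp7 and 28.5 FPKM of Gja1. Mitochondrially encoded genes made up 16.0% of the FPKM total of C11 and 23.6% of that of OB cell D02, the highest shares among the 61 failed cells. MB cell F02 had 80.7 FPKM of Gja1, 390 FPKM of Fabp7 and 540 FPKM of Mbp beside 721 FPKM of Th. No near-empty well held 50% of a glial or progenitor list.

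Glial and progenitor transcripts were found in a subset of the rich failed cells. A cell was counted as carrying a list when at least 50% of its genes were found. The 6 lists counted were astrocyte (18 genes), radial glia and progenitor (15), oligodendrocyte (15), oligodendrocyte precursor (10), microglia (14) and endothelium (11). Of the rich failed cells, 13 of 51 (25.5%, 14.3 to 39.6%) carried at least 1 list, against 3 of 224 passed cells (1.34%, 0.277 to 3.86%). By region these were 3 of 11 failed and 2 of 81 passed cells in FB, 4 of 16 and 1 of 75 in MB, and 6 of 24 and 0 of 68 in OB, where 0 of 68 allows a share of up to 5.28%. The astrocyte list was carried by 9 of the 13, the progenitor list by 9, the oligodendrocyte list by 3 and the precursor list by 2. The lists of microglia and endothelium were carried by none of the 51.

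**Figure D2:**
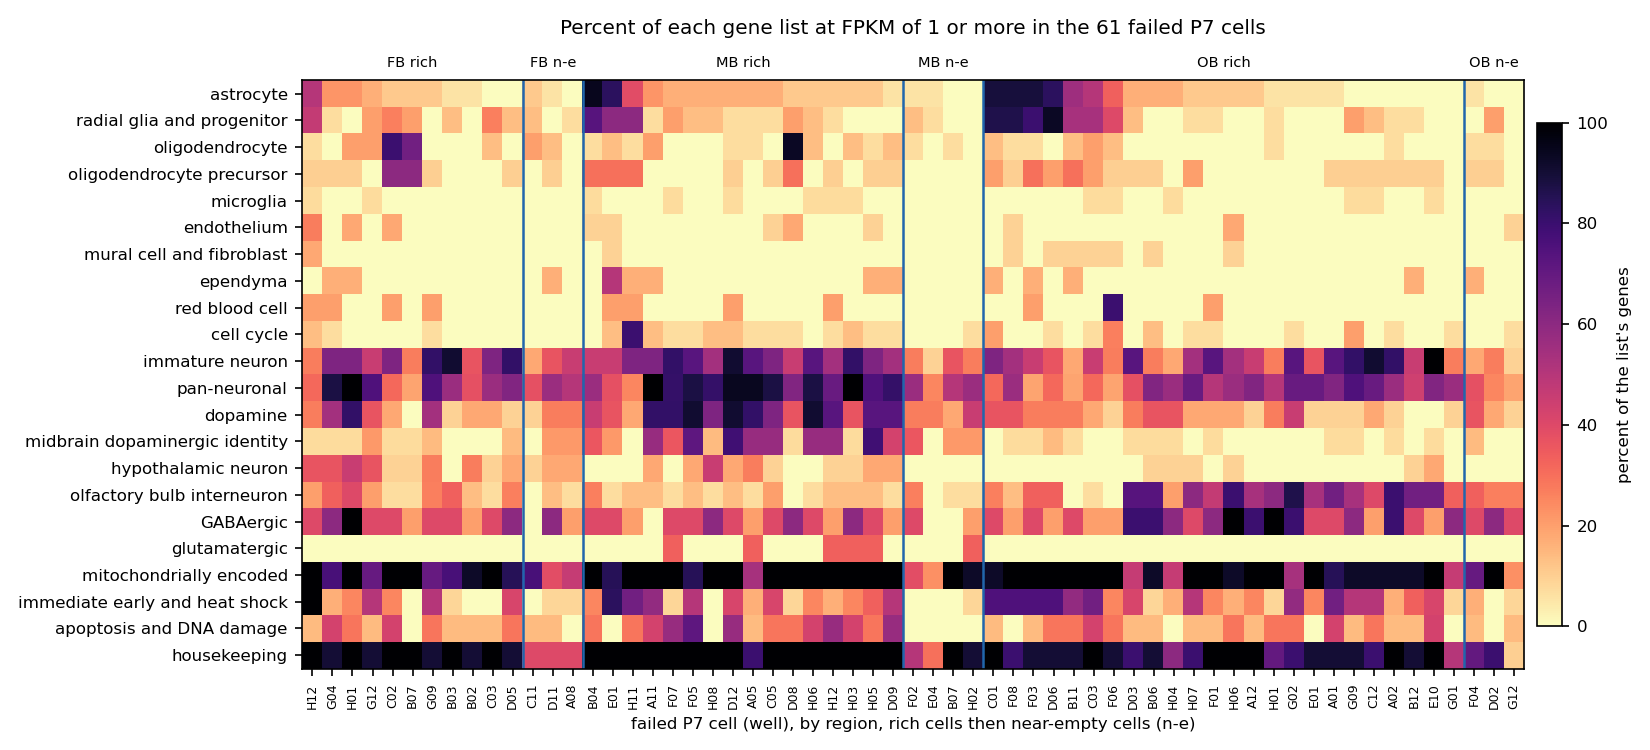
Percent of the genes of 22 lists found in each of the 61 failed cells (columns, by region, rich wells then near-empty wells marked n-e). The carrying cells appear as separate dark columns in the astrocyte, progenitor and oligodendrocyte rows, and no near-empty well reaches 50% in these rows.

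The 13 cells were spread over all regions and all 3 plates. TH02_18.20.16 held 7 of 17 rich failed cells that carried a list (41.2%, 18.4 to 67.1%) against 1 of 77 passed cells, TH02_20.16.18 held 5 of 18 against 0 of 71, and TH02_16.18.20 held 1 of 16 against 2 of 76. The result is therefore present on the plate whose columns were not exchanged. Of the 26 rich failed cells whose label gene number reached that of the lowest passed cell, 10 carried a list (38.5%, 20.23 to 59.4%), and of the other 25, 3 did (12%, 2.55 to 31.2%). In OB, the 6 carrying cells were 6 of the 8 failed cells with such a gene number, and none of the other 16 carried a list.

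The 4 marker genes are members of the lists that chose the carrying cells, so their counts describe the choice. Aqp4 was found in 7 of the 13 carrying cells, in 1 of 38 other rich failed cells and in 4 of 224 passed cells. Gja1 was found in 9 of 13, 2 of 38 and 3 of 224 of these cells, Fabp7 in 12 of 13, 9 of 38 and 46 of 224, and Mbp in 5 of 13, 9 of 38 and 86 of 224. The highest passed cell reached 24.6 FPKM of Aqp4 and 28.5 FPKM of Gja1, both in FB. Mbp and Fabp7 were thus found in many passed cells at low levels, up to 77.8 and 469 FPKM, and the highest values of both were in carrying cells.

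**Figure D3:**
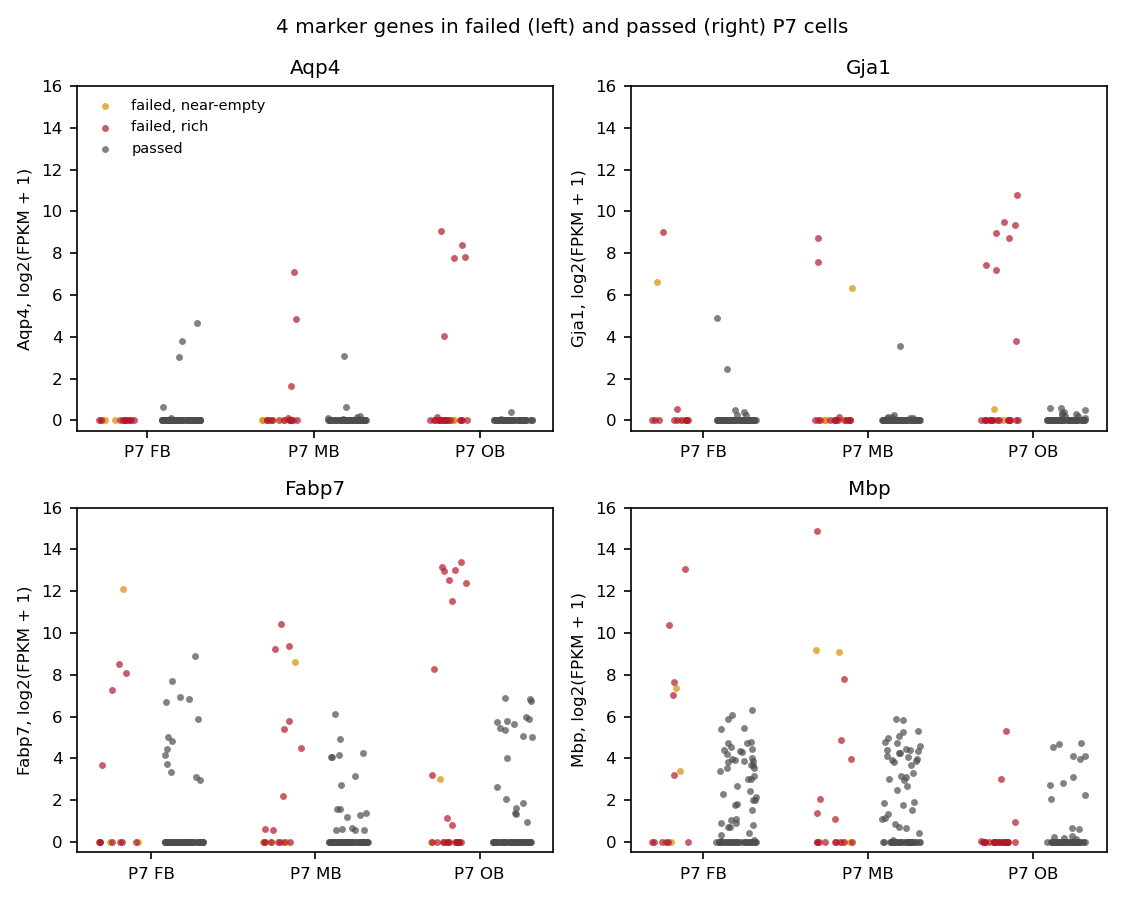
Aqp4, Gja1, Fabp7 and Mbp in each P7 cell as log2(FPKM + 1), by region, failed cells left of passed cells. A few failed cells stand far above all passed cells of their region, for Aqp4, Gja1 and Fabp7 most of all in OB and for Mbp in FB and MB.

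In OB, 4 cells carried a broad set of astrocyte transcripts. F08, D06, F03 and C01 held 15 or 16 of the 18 astrocyte genes and 12 to 14 of the 15 progenitor genes, whereas no passed OB cell held more than 4 and 5. Aqp4 stood at 215 FPKM in F08, 227 in D06, 340.0 in F03 and 530.0 in C01, against at most 0.315 FPKM in the 68 passed cells. Slc1a3 stood at 689.6, 1063, 1146 and 1509 FPKM in the same order, against at most 414 FPKM. The folate enzyme gene Aldh1l1, an astrocyte marker, stood at 417, 168, 183 and 396 FPKM. Gfap, an intermediate filament of astrocytes, stood at 803, 892 and 945 FPKM in F08, F03 and C01 and at 0 in D06.

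The progenitor genes of the same 4 cells were also high. Fabp7 stood at 8069 FPKM in F08, 5897 in D06, 5424 in F03 and 10805 in C01, against at most 117 FPKM in passed OB cells. Sox9 stood at 116, 51.4, 160 and 223 FPKM, and the phosphatase gene Ptprz1 at 215, 837, 555 and 445 FPKM. Olig1, a transcription factor of the oligodendrocyte lineage, was found in all 4 (137, 266, 109 and 518 FPKM) and in 0 of 68 passed cells, while Sox10 was at 0 in all 4. Mbp was at 38.8 FPKM in F08 and at 0 in the other 3. The 10 genes furthest above the passed mean differed between the cells. Aqp4 was among them in all 4 and Gfap in F08, F03 and C01. Ednrb was among them in D06, F03 and C01, Gja1 and Pla2g7 in D06 and F03, and Lcat in F08 and D06. Ntsr2 was among them in F03 alone and Acsbg1 in C01 alone.

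A pair of further OB cells, B11 and C03, had Gja1 and Fabp7 without most other astrocyte genes. Gja1 stood at 498 FPKM in B11 and 650 in C03, and Fabp7 at 2947 and 9131 FPKM. Aqp4 was 15.3 FPKM in B11 and 0 in C03, and Sox9, Aldh1l1 and Olig1 were at 0 in both. Instead they had Sox10, a transcription factor of oligodendrocytes, Schwann cells and olfactory ensheathing glia, at 70.6 and 292 FPKM. Mbp was at 0 in both, and of the oligodendrocyte list B11 held 2 and C03 held 3 of 15 genes. The highest passed OB cell had 0.192 FPKM of Sox10. Among the 10 genes furthest above the passed mean in both cells was the lipocalin gene Apod (3172 FPKM in B11, 5371 in C03). So were Frzb, which encodes a secreted Wnt antagonist (325 and 1158), and Apcdd1, another Wnt inhibitor (218 and 615). Vtn, which encodes vitronectin (376 and 112), was among the 10 in B11 alone. Both cells therefore differed from F08, D06, F03 and C01 in a whole set of genes. They reached 50% of the astrocyte and progenitor lists, but Sox9 and Aldh1l1 were at 0, and they are given no cell type name.

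OB cell F06 resembled B11 and C03 but reached 6 of 18 astrocyte and 6 of 15 progenitor genes, under the 50% limit. It had Gja1 at 1770 FPKM, the highest of all P7 cells, Fabp7 at 8228 FPKM, Sox10 at 101 FPKM and Vtn at 346 FPKM. It also held 4 of 5 red blood cell genes, among them the globins Hba-a1 at 7572 FPKM and Hbb-bs at 5815 FPKM, while no passed OB cell held more than 2. The mitotic cyclin gene Ccnb1 stood at 169 FPKM, and it was found in no other P7 cell, failed or passed. F06 had 2216 genes, and whether it holds the RNA of several cells was not tested.

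In MB, E01 and B04 carried both the astrocyte and the progenitor list. E01 held 15 and B04 held 17 of the 18 astrocyte genes, and 9 and 11 of the 15 progenitor genes. Aqp4 stood at 138 FPKM in E01 and 27.98 in B04, and Gja1 at 427 and 191 FPKM, against at most 7.54 and 11.0 FPKM in the 75 passed MB cells. Gfap stood at 1112 FPKM in E01 and 0 in B04, and Fabp7 at 656 and 1361 FPKM. E01 also held 3 of 6 ependyma genes, among them Foxj1, the regulator of motile cilia, at 9.1 FPKM. Among the 13 carrying cells, B04 had the highest Th, 76.1 FPKM. Its mitochondrial share was 8.75%. It held 9 of 16 pan-neuronal genes.

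MB cell H11 carried the progenitor list (9 of 15 genes) with cell cycle genes. It held 12 of 15 cell cycle genes, while no other failed cell held more than 4 and no passed cell more than 3. The proliferation marker Mki67 stood at 44.95 FPKM, the topoisomerase gene Top2a at 25.6, the replication clamp gene Pcna at 249, the ribonucleotide reductase subunit Rrm2 at 139 and the helicase subunit Mcm2 at 95.3 FPKM. Olig1 stood at 834 and Olig2 at 64.7 FPKM, Fabp7 at 606 and Slc1a3 at 91.9 FPKM, and Aqp4 and Gja1 were at 0. Of the precursor list it held 3 of 10 genes.

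FB cell H12 carried the astrocyte list at the limit, with 9 of 18 genes, 7 of 15 progenitor genes and 5466 genes in all. Gja1 stood at 523, Slc1a3 at 482, the glycolytic gene Aldoc at 2001, Cldn10 at 1238 and Sox9 at 316 FPKM, while Aqp4 and Gfap were at 0. It held all 12 genes of the immediate early and heat shock list, genes that cells switch on quickly after stimulation or stress. Fos stood at 4732 FPKM and Egr1 at 2261 FPKM, and the highest passed FB cell had 731 FPKM of Fos. No passed P7 cell held more than 10 of these 12 genes.

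The oligodendrocyte list was carried by 3 cells. MB cell D08 held 14 of its 15 genes, FB cell C02 held 12 and FB cell B07 held 10, and no passed cell held more than 5. Mbp stood at 30244 FPKM in D08, 8479 in C02 and 1318 in B07, against at most 57.3 FPKM in passed MB and 77.8 FPKM in passed FB cells. Cnp, a myelin enzyme gene, stood at 10909, 1697 and 1078 FPKM in the same order.

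The 3 cells differed in the genes of early and late myelination. Mog and Mobp, genes of mature myelin, stood at 3960 and 9205 FPKM in D08, and Mog was at 37.7 FPKM in C02 and 0 in B07. Enpp6, a gene of newly formed oligodendrocytes, stood at 0 in D08, 529 FPKM in C02 and 100 FPKM in B07. Gpr17, a receptor gene of differentiating precursors, stood at 225, 90.1 and 63.4 FPKM. The precursor list was carried by C02 and B07 (6 of 10 genes each), while D08 held 3 of 10. B07, with the lowest myelin values of the 3, also had Fabp7 at 361 FPKM and Bmp4 at 304 FPKM.

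The 3 passed cells that reached 50% of a list did so with neuronal genes. MB cell F03 held 10 of 18 astrocyte genes with a summed level of 174 FPKM, 14 of 16 pan-neuronal genes and Th at 933 FPKM. FB cell H08 held 9 astrocyte genes (429 FPKM summed), 16 of 16 pan-neuronal genes and Th at 4569 FPKM. FB cell D09 held 6 of 10 precursor genes (56.6 FPKM summed), 14 of 16 pan-neuronal genes and Th at 4.81 FPKM.

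The 13 failed cells had few neuronal genes. They held from 3 to 10 of the 16 pan-neuronal genes (median 5), against 3 to 16 (median 11) in the other 38 rich failed cells and 6 to 16 (median 14) in passed cells. Snap25, which encodes a protein of synaptic vesicle fusion, was found in 2 of 13, 33 of 38 and 219 of 224 of these cells. They had been sorted for eGFP, yet the reporter RNA was found in 3 of 13 and reached 9.93 FPKM at most, against 20 of 38 other rich failed cells and 163 of 224 passed cells (median 40.8 FPKM). Th was found in 9 of 13, but at a median of 1.27 FPKM and above 10 FPKM in B04 alone, against a median of 524 FPKM in the other 38 and 652 FPKM in passed cells. Where Th was found in them, it was thus under 10 FPKM in 8 of 9 cells.

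**Figure D4:**
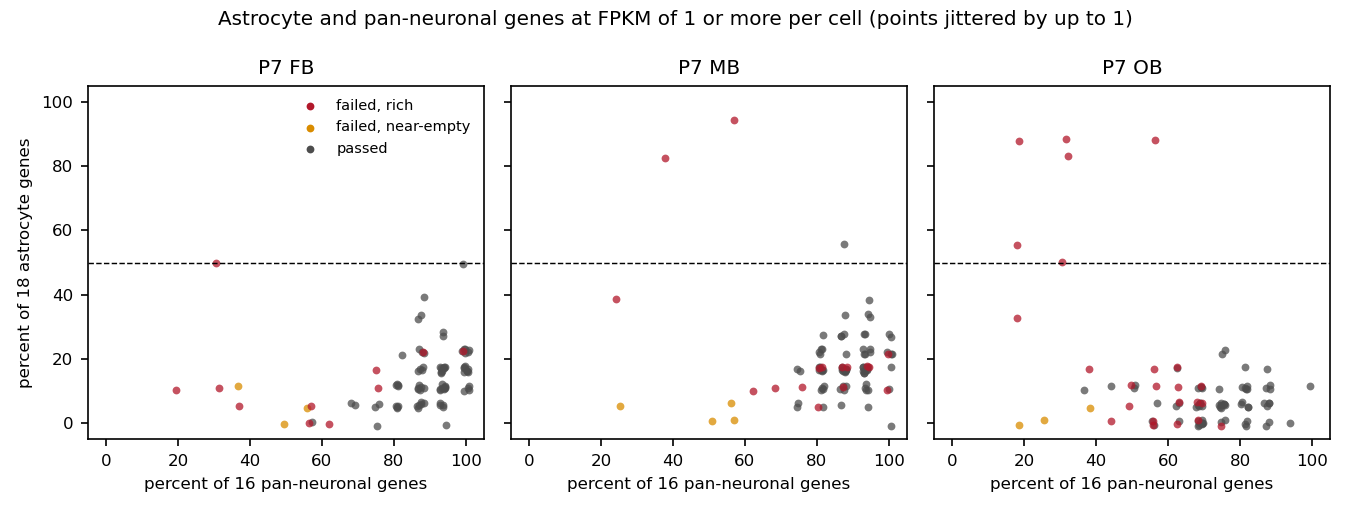
Percent of 18 astrocyte genes (y axis) against percent of 16 pan-neuronal genes (x axis) found in each P7 cell, failed and passed, with a dashed line at 50% of the astrocyte list and a jitter of up to 1 percentage point. The failed cells above the line hold 3 to 9 of the 16 pan-neuronal genes, and the 2 passed cells on or above it hold 14 and 16.

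The 13 cells were not the poorest of the rich failed cells. They had a median of 3378 genes (2337 to 5466), against 2184.5 in the other rich failed cells and 5031.5 in passed cells. The library concentration in the labels, whose unit is not stated there, had medians of 5834, 3567.5 and 6364.5 in these groups. The mitochondrial share had medians of 3.64%, 2.27% and 2.58%. Immediate early and heat shock genes were more often found in the carrying cells, with a median of 8 of 12 genes (0 to 12), against 3 (0 to 8) in the other rich failed cells and 4 (0 to 10) in passed cells. Their part in the results was not tested.

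Most of the other 12 rich failed MB cells had transcripts of midbrain dopamine neurons. Th stood between 79.4 and 2053 FPKM (median 1138), against a median of 1184 FPKM in passed cells. Slc6a3 was found in 11 of 12 (median 251 FPKM), against 64 of 75 passed cells (median 409 FPKM), and Snap25 in 12 of 12 and 75 of 75. They held a median of 8 of 14 midbrain dopaminergic identity genes and 8.5 of 11 dopamine genes, against 9 and 9 in passed cells. H03 and H08 stood apart with 1 and 2 of the 14 identity genes. H03 had the lowest Th of the 12, 79.4 FPKM, Slc6a3 at 0.271 FPKM, the genes of the dopamine enzyme Ddc and the factor Nr4a2 at 0, and 98.2 FPKM of Slc17a6, which encodes a glutamate transporter of synaptic vesicles. Of the 12, 10 had a label gene number at or above that of the lowest passed cell.

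The other 18 rich failed OB cells were weaker in Th. It was found in 12 of 18 and at 10 FPKM or more in 8 (median 5.10 FPKM), against 67 and 60 of 68 passed cells (median 909 FPKM). Gad1 was found in 13 of 18 against 68 of 68, and eGFP in 3 of 18 against 39 of 68. They held a median of 9 of 15 OB interneuron genes, against 10.5 in passed cells. Some had single astrocyte or progenitor transcripts without carrying a list. D03 had 244 FPKM of Slc1a3, 76.1 FPKM of the progenitor factor Sox2 and 88.2 FPKM of Dcx, a gene of migrating young neurons. F01 had 228 FPKM of Slc1a3 and 65.3 FPKM of Sox2. Passed OB cells averaged 16.5 FPKM of Slc1a3, 0.363 FPKM of Sox2 and 90.9 FPKM of Dcx. The highest passed OB cell had more Slc1a3 than D03 and F01, so neither stood outside the passed range for that gene.

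The other 8 rich failed FB cells all held Th, with a median of 486 FPKM against 163 FPKM in passed cells, where it was found in 77 of 81. The reporter was found in 7 of 8 against 55 of 81. They held a median of 3 of 11 hypothalamic neuron genes, against 6 in passed cells. Among them, G04, G09 and G12 of TH02_16.18.20 had library concentrations of 12962 to 17368, near the top of the FB range, with 2887 to 4379 genes. The next comparison takes all rich failed cells of a region together.

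In OB, 11917 genes had a mean FPKM of 1 or more in either group. The fold is the ratio of the mean FPKM plus 1, rich failed over passed, on a log2 scale, which understates the change of low genes, and past 2-fold means beyond 1 or -1. Of these genes, 2366 were higher in rich failed cells (19.9%) and 3790 lower (31.8%). The astrocyte list had 15 of 17 compared genes higher and 0 lower (median log2 fold 5.10), and the progenitor list 12 of 15 higher and 0 lower (4.02), against a median of -0.30 over all genes. All 5 GABAergic genes were lower (median -1.40), as were 6 of 15 OB interneuron genes with 1 higher (-0.77) and 5 of 11 dopamine genes with 1 higher (-0.62). Th averaged 186 FPKM in rich failed cells and 980.0 FPKM in passed cells, and Gad1 116 and 361 FPKM.

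The genes furthest apart in OB, with no single cell giving most of the total, were led by glial genes. Apoe, the lipid carrier secreted by astrocytes, averaged 1868 ± 2792 FPKM in rich failed cells and 5.51 ± 18.7 FPKM in passed cells (SD over 24 and 68 cells), and was found in 11 of 24 and 18 of 68. Gja1 was found in 8 of 24 and 0 of 68 and Gfap in 6 of 24 and 0 of 68. Fabp7, Selenop, Cd9, Ptn and Ednrb had log2 folds of 6.09 to 7.39, and Cmtm5 and Mgst1 were found in 7 of 24 each and listed at 0 in all 68 passed cells. Gja1, Gfap, Fabp7 and Ednrb are on the lists that chose the carrying cells. The carrying cells gave most of the Gfap and Cmtm5 totals, and F06, which carried no list, had the highest Gja1. On the other side, Scgn, which encodes secretagogin, a calcium binding protein of OB interneurons, was found in 0 of 24 and 33 of 68, and the synaptic gene Nptxr in 3 of 24 and 57 of 68. Mlx, Car4 and Mrps12 were listed at 0 in all 24, and Gm8239, Rgs10, Matk, Pde1c and Osbpl3 had log2 folds of -6.18 to -4.75.

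Not all neuronal genes of OB were lower. Of the 11 immature neuron genes, 4 were higher and 0 lower, among them Stmn1 (389 and 149 FPKM) and Igfbpl1 (46.1 and 7.53 FPKM in rich failed and passed cells), with a list median of 0.35. That median was -0.60 when the log2 values of single cells were averaged. Lgr5, a receptor gene of OB interneurons, averaged 71.9 and 412 FPKM, and Trh, which encodes a neuropeptide precursor, 267 and 872 FPKM.

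In MB, the groups were closer. Of 12300 genes, 1606 were higher in rich failed cells (13.1%) and 2011 lower (16.3%), with a median of -0.14. The astrocyte list had 14 of 18 genes higher and 0 lower (2.71), the progenitor list 11 of 11 (2.47), the oligodendrocyte list 14 of 14 (6.32) and the cell cycle list 11 of 11 (1.78). These higher counts rest on few cells, D08 for myelin genes and H11 for the cell cycle. Of 16 pan-neuronal genes 0 were lower (-0.60), of 13 midbrain identity genes 2 (-0.19) and of 11 dopamine genes 1 (-0.49). Th averaged 888 FPKM in rich failed cells and 1490 FPKM in passed cells.

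The genes named in MB by the same rule were Fabp7 (171.6 ± 382 against 2.51 ± 9.22 FPKM, SD over 16 and 75 cells) and Fos (173 ± 365 against 19.8 ± 34.2 FPKM), followed by Rab31, Iffo1, 1110017D15Rik, Psat1, Tbrg4, Api5, H1f0 and Mical3 with log2 folds of 1.83 to 2.62. Fabp7 was found in 7 of 16 and 13 of 75, and the carrying cells E01, B04 and H11 gave most of its total, at 656, 1361 and 606 FPKM. Fos was found in 8 of 16 and 42 of 75, so in no larger share of rich failed cells, and H11 (1078 FPKM) and E01 (1103 FPKM) gave most of its total. Plpp4 was the lowest (-4.30), found in 1 of 16 and 40 of 75, and Srgap2, Saxo2, Prr3, Rabggtb, Gm10401, Bnip1, Uqcc1, Sdc2 and Bola3 had log2 folds of -2.75 to -1.93.

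In FB, lower genes prevailed. Of 12170 genes, 1782 were higher in rich failed cells (14.6%) and 4808 lower (39.5%), with a median of -0.61. Hypothalamic neuron genes were lower in 8 of 11 and higher in 1 (-2.25), dopamine genes lower in 7 of 11 (-1.79) and pan-neuronal genes in 9 of 16 (-1.10). Ghrh, the growth hormone releasing hormone gene, averaged 0.364 FPKM and was found in 2 of 11 rich failed cells, against 1545 FPKM and 42 of 81 passed cells. Gal, which encodes the peptide galanin, averaged 110.0 and 548 FPKM. Th itself averaged 344 and 415 FPKM (-0.27).

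Glial lists were higher in FB too. The astrocyte list had 9 of 14 compared genes higher and 3 lower (1.57), the progenitor list 7 of 8 higher (2.21), the oligodendrocyte list 12 of 12 (4.41) and the precursor list 5 of 8 higher and 1 lower (1.64). These higher counts rest on few cells. B07 and C02 gave most of the oligodendrocyte values, and H12 gave most of the totals of Gja1, Slc1a3, Cldn10 and Hes1. Without each gene's highest cell, the astrocyte median was -1.78. The immature neuron list had 5 of 11 genes higher, but single cells decided some of them. Igfbpl1 was found in 1 of 11 rich failed cells, B03 (365 FPKM), and B03 also had 300.1 FPKM of Sox11, next to 32.3 FPKM at most in the other 10. The list median was 0.23, and -0.22 when log2 values of single cells were averaged.

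The FB genes named by the rule on single cells were led by Tsc22d4 (83.9 ± 157 against 1.14 ± 4.48 FPKM, SD over 11 and 81 cells) and Nfib, a transcription factor of glial development (7 of 11 and 3 of 81 cells). Tns3, Sox5, Tmod3, Josd2, Rab33a, Rbpj, Sh3bp4 and Nr1h2 had log2 folds of 2.36 to 4.53. Lower, beside Ghrh, were Cbln4, Synpr, Cntnap2 and Pak1 (-4.92 to -4.63), genes with roles at synapses or in neurites, and Dnajc19, found in 0 of 11. 1110059E24Rik, S100a10, Oscp1 and 1700021F05Rik were listed at 0 in all 11 rich failed cells.

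Immediate early and heat shock genes were higher in each region, in 10 of 12 genes in FB (1.86), 10 of 12 in MB (2.06) and 8 of 11 in OB (2.05), with 0 lower. In MB the carrying cells H11 and E01 gave most of it, with Egr1 at 769.9 and 263 FPKM and at most 14.05 FPKM in the other 14, against at most 42.4 FPKM in passed cells. In FB the carrying cell H12 gave most of the totals of Fos, Egr1 and Junb, at 4732, 2261 and 973 FPKM. In OB, Fos averaged 526 FPKM in rich failed cells and 113 FPKM in passed cells, and was found in 20 of 24 and 55 of 68. At least 50% of this list was found in 3 of 11, 5 of 16 and 11 of 24 rich failed cells of FB, MB and OB, against 22 of 81, 11 of 75 and 26 of 68 passed cells. Mitochondrially encoded genes were lower in 6 of 13 in FB (-0.48), against 39.5% and -0.61 of all FB genes. In MB and OB, 0 of 13 were lower. The 6 in FB were mt-Co2, mt-Co3, mt-Atp6, mt-Atp8, mt-Nd3 and mt-Nd4l, with log2 folds of -2.79 to -2.25. The others lay between -0.48 and 0.56. Of 10 housekeeping genes, 1 was past 2-fold in OB and 0 in FB and MB.

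The glial list medians depended on the 13 carrying cells. Without them, chosen after the values were seen, the astrocyte median was -0.76 in FB, -0.23 in MB and 1.99 in OB, the progenitor median 0.93, -0.40 and 2.26, and the oligodendrocyte median 0.28, 0.36 and -1.13. The immediate early median was then -0.81 in FB, 0.31 in MB and 1.00 in OB. The OB astrocyte and progenitor medians without them still contain F06.

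**Figure D5:**
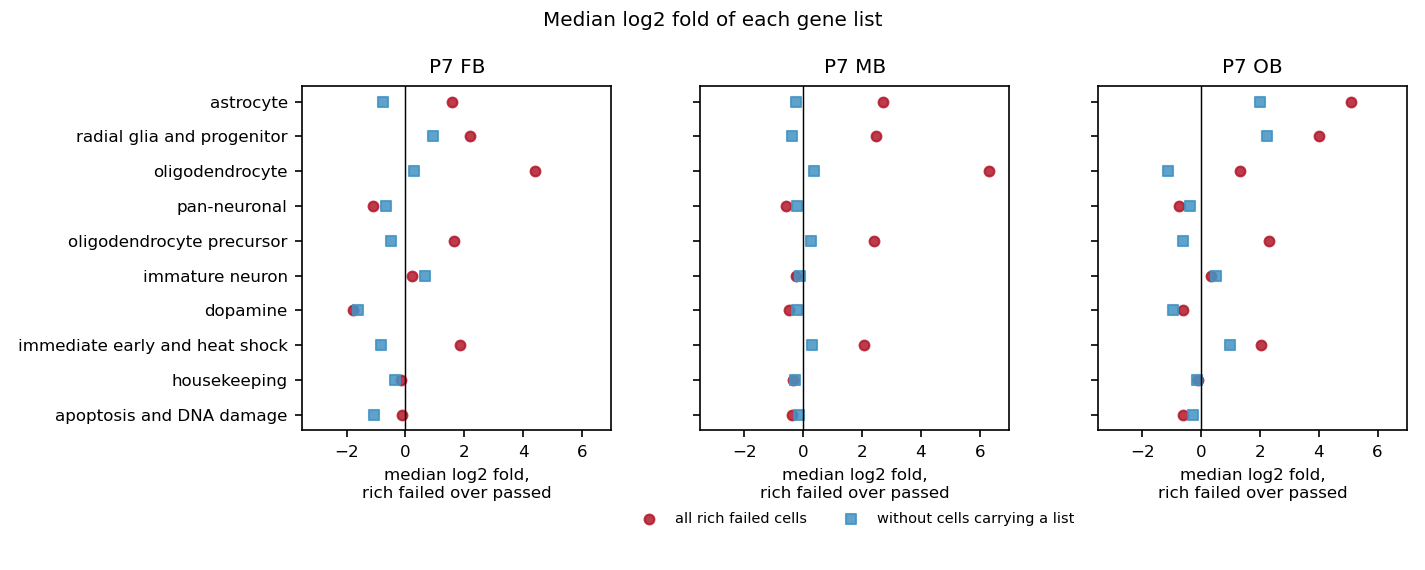
Median log2 fold, rich failed over passed cells, of 10 gene lists in FB, MB and OB, with all rich failed cells (red) and without the 13 that carry a glial or progenitor list (blue). Without them the astrocyte median lies at -0.76 in FB and -0.23 in MB and remains above 0 in OB at 1.99.

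The split of higher and lower genes depended on how cells were averaged. With log2 values averaged over cells instead of FPKM, 225 genes were higher and 3423 lower in FB (6.17% of those past 2-fold were higher, against 27.04% in the comparison above), 104 and 2150 in MB (4.61% against 44.4%) and 221 and 2433 in OB (8.33% against 38.4%). With a pseudocount of 10, the share that was higher was 33.9%, 74.9% and 48.1%. When each gene lost its highest cell, 328, 345 and 963 genes were higher and 7043, 3600 and 4989 lower in FB, MB and OB. With each cell scaled to the same FPKM total, the medians over all genes were -0.32, -0.08 and -0.21.

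For orientation in the mm10 assembly, with annotation from GENCODE M21, Gja1 (ENSMUSG00000050953.9) spans chr10:56377330-56402513 and Fabp7 (ENSMUSG00000019874.11) chr10:57784881-57788450, both on the plus strand. Th (ENSMUSG00000000214.10) spans chr7:142892752-142931128 on the minus strand. The values are sums over whole genes and do not tell exons or isoforms apart.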

How the data were processed

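Single cells were sequenced with Smart-Seq2, and each sample is 1 cell. The authors deposited FPKM values per gene, made with HISAT2 and Cuffnorm on mm10, per the submitters' processing notes; versions, filters and the quality criterion are not given in the sources used here. FPKM holds no depth, so the number of genes found stands in for it. Of 28952 features, 28938 were used (14 that share a symbol were left out), and 28622 matched a symbol in GENCODE M21. Columns of plates TH02_16.18.20 and TH02_20.16.18 were exchanged well by well. No 2 columns were identical.

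From these values were computed the genes at an FPKM of 1 or more, the share of each of 22 lists (248 genes, all measured) found per cell, and log2((mean + 1)/(mean + 1)) of rich failed over passed cells, for genes whose mean FPKM reached 1 in either group. No test was run, since each region is 1 pool of animals. The 95% intervals of shares are exact (Clopper-Pearson) and hold counting error alone. The fold calculation was tested on simulated data. Named genes are list genes and, per region, the 10 highest and 10 lowest folds of genes that, in the group where they are higher, average 20 FPKM or more, are found in 25% of cells or more and draw under 50% of their total from 1 cell, with the same direction on every plate; for a carrying cell, the 10 genes furthest above the passed mean among those at 50 FPKM or more. F06 and single genes of other cells were picked after their values were seen. The members and lists were chosen with earlier results of these data known. Alternatives changed the limits, the pseudocount, the filter, the averaging, the scaling, the plates and the reading of columns; leaving out the carrying cells, a comparison with the highest passed cell and a limit on the label gene number were added after seeing the data. Python 3.11.15, numpy 2.4.6, pandas 2.3.3, scipy 1.17.1 and matplotlib 3.10.9 were used.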

Additional observations from a re-analysis of the deposited data

How the results depend on the processing

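No paired analysis was possible because no result comes from a test and cells are not replicates. Of 600 values recomputed, 312 concern results of the comparisons, of which 235 stayed near the main value, 68 moved and 9 changed sign. Another 288 concern 6 further lists per region, of which 247, 34 and 7 did. Near meant within a fixed factor for a count and within the SD over plates for a median. A change of sign was counted only for medians of 2-fold or more in the main comparison. Smaller medians also changed sign without being counted so. The immature neuron medians, 0.23 in FB and 0.35 in OB, were below 0 in 7 of 16 recomputations each. The cause was not tested. FPKM does not give the depth, so a gene listed at 0 is not shown to be absent.

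The 10 near-empty wells became 3 with a limit of 500 genes, 25 with 2000 genes and 6 with all genes above 0; they were 2 with the columns taken by name, 1 on TH02_18.20.16 alone and 4 without TH02_20.16.18. The 13 carrying cells became 8 at 67% of a list, 8 by name, 7 on TH02_18.20.16 alone, 6 without that plate and 8 without TH02_20.16.18, and were 10 to 14 under the other limits tried.

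Numbers of genes past 2-fold were 518 higher and 1009 lower in FB, 296 and 99 in MB and 621 and 671 in OB with a pseudocount of 10. With a mean FPKM of 10 or more they were 958 and 1907, 607 and 550, and 1105 and 1397. With averaged log2 values, 225 (FB), 104 (MB) and 221 (OB) were higher and 2433 lower in OB. Without each gene's highest cell, 328, 345 and 963 were higher and 3600 lower in MB. By name, 1028 were higher in MB and 2342 lower in OB. On TH02_18.20.16 alone, 4043 were lower in MB and 5973 in OB, and without TH02_16.18.20, 3051 in MB. Without the carrying cells, 1053 were higher in FB and 919 in MB.

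Median log2 folds moved as follows. With columns by name, the FB astrocyte median was -0.24 and the progenitor median 0.32; in MB the astrocyte, progenitor, precursor and immediate early medians were -0.86, -1.24, -0.27 and -0.0024. Without each gene's highest cell, the FB astrocyte and immediate early medians were -1.78 and -0.66 and the MB oligodendrocyte median 0.85. Without TH02_18.20.16 these 3 were -1.54, -0.23 and 0.83 and the OB astrocyte median 2.75, and on that plate alone the MB astrocyte and progenitor medians were 0.14 and 0.53. Without TH02_20.16.18 the MB astrocyte median was 0.084.

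With averaged log2 values, the progenitor, oligodendrocyte and pan-neuronal medians were 0.83, 1.23 and -2.58 in FB and 0.60, 0.52 and -1.29 in MB, and the OB astrocyte and progenitor medians 1.54 and 1.203. A pseudocount of 10 gave 0.82 for FB progenitor, 2.50 for OB astrocyte and 1.80 for OB progenitor genes, and one of 0.1 gave 4.56 for MB progenitor genes. The OB oligodendrocyte median, over 5 genes, was 5.03 at a mean of 10 or more, 2.56 with near-empty wells, 0.047 with no filter and 3.56 against the passed cells at or under the median gene number. The FB astrocyte median was 4.16 at a mean of 10 or more, and the FB progenitor median 0.55 with no filter.

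Without the 13 carrying cells, the astrocyte, progenitor, oligodendrocyte, precursor and immediate early medians of FB were -0.76, 0.93, 0.28, -0.49 and -0.81. In MB the astrocyte, progenitor and oligodendrocyte medians were -0.23, -0.40 and 0.36, and in OB the astrocyte, progenitor, oligodendrocyte and precursor medians 1.99, 2.26, -1.13 and -0.60.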

Other observations

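At embryonic day 15.5 the label of failed quality control went with a different picture. Of 9 failed FB cells 4 were near-empty (88 to 4506 genes, median 1363), and all 7 failed MB cells were (55 to 349 genes, median 149). None of the 16 carried a glial list, and the highest share of the astrocyte list was 11.1%, in FB. The passed cells of that age, 84 in FB and 88 in MB, carried no glial list either. Their highest astrocyte shares were 22.2% in FB and 27.8% in MB. The difference from P7 was not tested, and the tissue was dissociated differently at the 2 ages.

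AY036118 was the gene with the highest FPKM in 60 of the 61 failed cells. In OB cell G12 the highest was Rprm, at 280604 FPKM, in a well with 303 genes, and the 10 highest genes made up 76.2% of its FPKM total. Rprm also stood at 21142 FPKM in the near-empty FB cell A08. The high AY036118 was not particular to failed cells. It averaged 56490, 58288 and 57597 FPKM in rich failed cells of FB, MB and OB, and 60998, 61969 and 58539 FPKM in passed cells.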
